A study of Mus musculus with 63 samples.

Results

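Hearts of 2 inbred mouse strains, NOD and PWK, were compared across all genes measured. The members were the 8 NOD and the 8 PWK libraries, taken by their strain label, which made 16 of the 63 libraries of a study of 8 strains (the others being 129, AJ, B6, Cast, NZO and WSB). All animals ate the same diet, rich in fat (45%) and sugar, and no group on another diet was analysed here. RNA came from frozen, pulverised heart and was sequenced after selection of polyadenylated RNA, so ribosomal RNA and transcripts without a poly(A) tail were poorly sampled. Each library carried a strain name and a number, 1 to 8 for NOD and 1 to 7 and 9 for PWK. The labels gave neither the sex and age of the animals nor whether an NOD mouse was diabetic at collection. Nothing in them said that the libraries came from separate animals, so the p-values measured the spread between these libraries.

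NOD, the non-obese diabetic strain, is a classical laboratory strain in which T cells destroy the insulin-producing beta cells of the pancreas, and it is the standard mouse model of autoimmune diabetes. PWK was derived from wild-caught mice of the subspecies Mus musculus musculus and is far more distant from the reference strain B6 than NOD is. The adult mouse heart burns mostly fatty acids, with glucose, lactate, ketone bodies and branched-chain amino acids as further fuels, and its beat rests on sodium, potassium and calcium channels, on calcium release from the sarcoplasmic reticulum and on the myosin heavy chain encoded by Myh6. Besides cardiomyocytes the tissue holds fibroblasts, endothelial cells, pericytes, resident macrophages and blood.

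Levels were given as CPM, a gene's counts per 1000000 counts assigned to genes after scaling between libraries, with ± for the standard deviation over the 8 libraries of a strain. CPM was not divided by gene length and served to compare a gene between libraries, not different genes with each other. Differences were log2 differences of NOD minus PWK with their standard error, so a positive value means a higher level in NOD. A gene was called higher in a strain where the adjusted p of edgeR's quasi-likelihood test was below 0.05. The fit took its estimate of spread from all 63 libraries of the study. A fit of the NOD and PWK libraries by themselves was named the 16-library fit. It is given where it changed the call of a named gene, or moved a count from 0 or by a factor over 1.5. Many list counts moved by less in that fit, and most of those moves are not given. Positions refer to the mouse build GRCm38.

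The libraries held 32054818 to 35509628 counts in NOD and 28424843 to 36951997 in PWK. All 16 carried the defining genes of heart muscle. Myh6 was at 28390 to 34440 CPM (median 31590) in NOD and 27560 to 31340 CPM (median 29900) in PWK, and the sarcoplasmic reticulum calcium pump Atp2a2 at 12580 to 14660 CPM (median 13270) in NOD and 13760 to 14870 CPM (median 14370) in PWK. Neither passed the test, with log2 differences of 0.08 ± 0.09 (adjusted p = 0.439) and -0.09 ± 0.13 (adjusted p = 0.584). Correlations of log2 CPM across genes, which are not independent replicates, ran from 0.9847 to 0.9907 between libraries of the same strain and from 0.9245 to 0.930 between the strains. Xist, the transcript of the inactive X chromosome, was high in 4 of 8 libraries of each strain, NOD 1 to 4 and PWK 1, 2, 6 and 7. The Y-linked gene Ddx3y was at 72.78 to 88.09 CPM in the other NOD libraries and 71.55 to 81.21 CPM in the other PWK libraries. In the libraries high in Xist it reached at most 0.03088 CPM. Sex did not enter any fit. A few libraries stood apart. NOD 3 was high in B cell markers, whose summed level over 14 genes was 309 CPM there against 5.98 to 65.0 CPM in the other NOD libraries, and NOD 5 was high in T and NK cell markers, with 95.3 CPM over 10 genes against 7.25 to 21.7 CPM. In PWK, library 2 had the highest sum of B cell markers, 120 CPM against 7.91 to 41.6 CPM in the others. In whole tissue, fewer cells of a type and less RNA per cell cannot be told apart.

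The strains differed at a large share of the genes, mostly by small amounts. Of 16425 genes tested, 8070 (49.1%) differed, 4187 (25.5%) being higher in NOD and 3883 (23.6%) higher in PWK, while 8355 did not pass. The median log2 difference over all tested genes was 0.011, and the median size of a called difference was 0.58 on the log2 scale. A total of 3500 called differences (43.37%) lay under 0.5 on that scale. Differences of at least 2-fold were called for 1536 genes (9.35%) higher in NOD and 851 (5.18%) higher in PWK. The authors listed only genes above 0 in at least 32 of 63 libraries, so genes seen in NOD or PWK alone are missing. The effect of that limit on these counts was not tested. The 8 NOD libraries did not overlap the 8 PWK libraries in 4106 genes (25.0%), with NOD above in 2142 (13.0%) and PWK above in 1964 (12.0%). Counts of the gene lists below are to be read beside these shares over all tested genes. Among the autosomes and the X chromosome, the called share ran from 44.37% on chromosome 15 to 53.11% on chromosome 5.

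**Figure D1:**
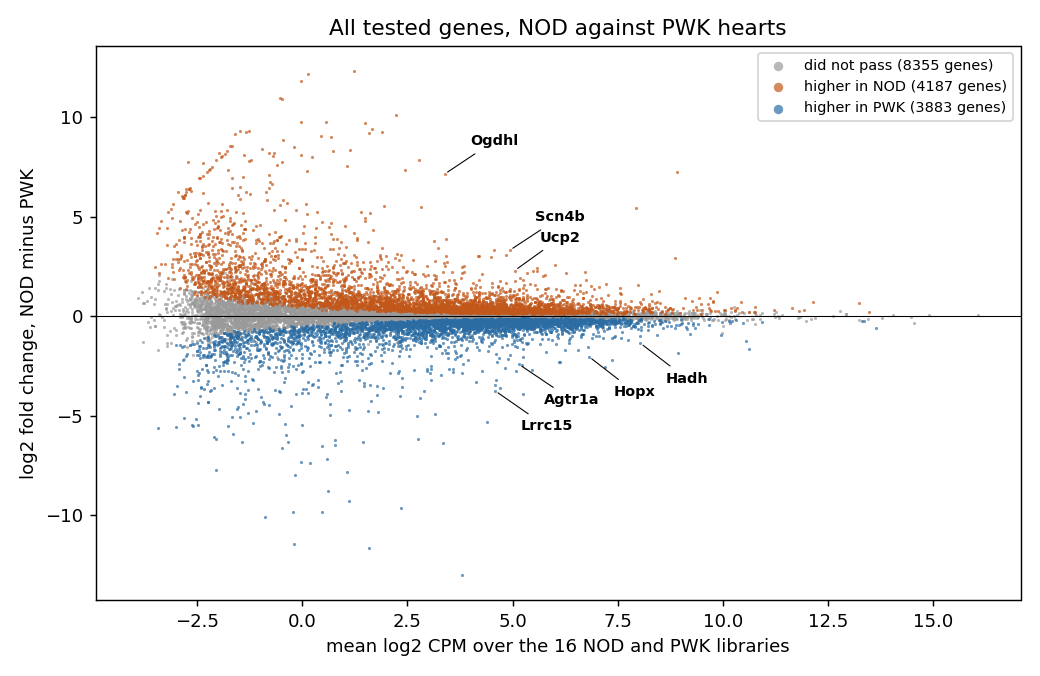
Log2 difference of NOD minus PWK (vertical axis) against mean log2 CPM (horizontal axis) for 16425 tested genes, each point a gene. The 4187 genes higher in NOD and the 3883 higher in PWK spread on both sides of a median of 0.011, and Ogdhl, Scn4b and Ucp2 lie far above 0 while Lrrc15, Agtr1a, Hopx and Hadh lie below it.

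Set among the strain means of the whole study, PWK was more often at the edge than NOD. PWK had the highest of the 8 strain means in 2774 tested genes (16.89%) and the lowest in 2980 (18.14%), against 1281 (7.799%) and 1268 (7.72%) for NOD. Of the 1536 genes at least 2-fold higher in NOD, PWK was the lowest strain in 884 (57.55%) and NOD the highest in 389 (25.33%). For the 851 genes at least 2-fold higher in PWK, PWK was the highest strain in 539 (63.34%) and NOD the lowest in 190 (22.33%). These shares are a description, since the pair of strains also fixed which genes were counted.

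Ogdhl, at chr14:32322019-32347820, showed the largest difference among named genes whose mean log2 CPM reached 3 and that had no near-identical copy. It encodes a relative of the catalytic subunit of the 2-oxoglutarate dehydrogenase complex of the tricarboxylic acid (TCA) cycle. Its level was 92.2 to 148 CPM (median 119) in NOD and 0.489 to 1.14 CPM (median 0.904) in PWK, a log2 difference of 7.15 ± 0.24 (adjusted p = 5.57e-34). Every NOD library lay above every PWK library, and the PWK values were close to 0. Serpinb6b (chr13:32965209-32979067), an intracellular serine protease inhibitor, was at 33.8 to 47.9 CPM (median 40.7) in NOD and 2.37 to 3.57 CPM (median 2.66) in PWK, a difference of 3.86 ± 0.14 (adjusted p = 6.5e-34). Cyfip2 (chr11:46193850-46312859), a subunit of the WAVE complex that drives actin branching, was at 27.6 to 42.7 CPM (median 31.4) in NOD and 1.82 to 3.12 CPM (median 2.32) in PWK, a difference of 3.76 ± 0.17 (adjusted p = 4.51e-28). The sugar-binding galectin gene Lgals4 (chr7:28833854-28841708) was at 21.7 to 43.1 CPM (median 30.2) in NOD and 1.93 to 4.35 CPM (median 2.74) in PWK, a difference of 3.45 ± 0.26 (adjusted p = 1.03e-17). Tmem144 (chr3:79812564-79852773), which encodes a membrane protein, differed by 3.06 ± 0.12 (adjusted p = 6.48e-32), at 82.9 ± 8.32 CPM in NOD and 9.97 ± 1.36 CPM in PWK. In none of these genes did the libraries of the strains overlap.

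In the other direction, Lrrc15 (chr16:30269302-30283256), a leucine-rich repeat membrane protein, was at 5.11 to 7.88 CPM (median 6.76) in NOD and 81.3 to 97.6 CPM (median 87.1) in PWK, a log2 difference of -3.75 ± 0.20 (adjusted p = 1.07e-23). Prps2 (chrX:167346322-167382749), which makes the phosphoribosyl pyrophosphate needed for nucleotides, was at 6.89 to 12.3 CPM (median 7.35) in NOD and 66.9 to 85.2 CPM (median 75.7) in PWK, a difference of -3.23 ± 0.12 (adjusted p = 1.07e-33). Pclo (chr5:14514918-14863459), a scaffold of the presynaptic zone of neurons, was at 2.21 to 3.25 CPM (median 2.67) in NOD and 23.4 to 26.6 CPM (median 24.6) in PWK, a difference of -3.19 ± 0.17 (adjusted p = 1.42e-25). Arc (chr15:74669083-74672570), known as an activity-induced gene of neurons, was at 1.94 to 6.79 CPM (median 3.32) in NOD and 20.9 to 36.9 CPM (median 30.9) in PWK, a difference of -2.98 ± 0.19 (adjusted p = 6.46e-21). Itgal (chr7:127296260-127335138), the alpha chain of the leukocyte integrin LFA-1, was at 1.22 to 14.1 CPM (median 1.65) in NOD and 21.8 to 33.6 CPM (median 26.9) in PWK, a difference of -2.87 ± 0.35 (adjusted p = 4.95e-10). The highest NOD value of Itgal came from NOD 5, the library rich in T cell markers, and it still lay below all PWK libraries. Without NOD 5 the difference of Itgal was -3.63 (adjusted p = 3.73e-15). The strains did not overlap in any of these genes.

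**Figure D2:**
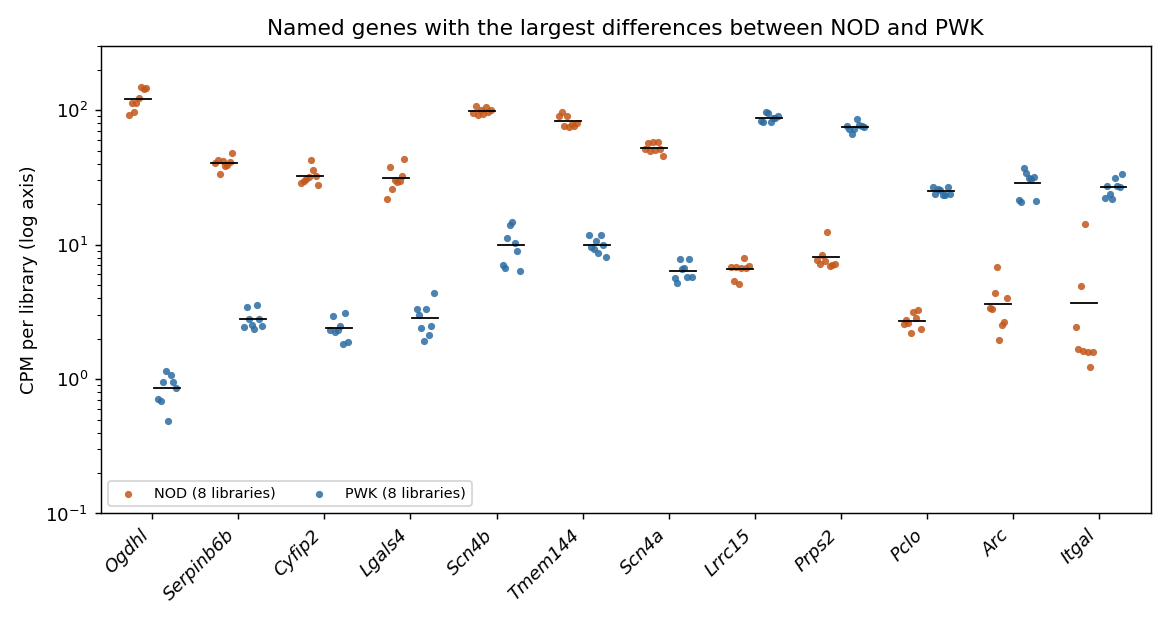
CPM per library on a log axis for 12 genes with large differences, with 8 NOD and 8 PWK points each and a bar at each mean. No NOD point reaches a PWK point in any panel, and the widest gap among these panels is that of Ogdhl, at 92.2 to 148 CPM in NOD and 0.489 to 1.14 CPM in PWK.

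Among the most abundant genes the differences were smaller. Glul, which makes glutamine from glutamate, was at 468 ± 42.4 CPM in NOD and 212 ± 17.9 CPM in PWK, a log2 difference of 1.14 ± 0.16 (adjusted p = 2.85e-08). Tacc2, a coiled-coil protein of the centrosome, was at 753 ± 124 CPM in NOD and 397 ± 30.2 CPM in PWK, a difference of 0.92 ± 0.11 (adjusted p = 2.13e-10), and cyclin G1 (Ccng1), a p53 target, was at 943 ± 91.9 CPM in NOD and 501 ± 22.4 CPM in PWK, a difference of 0.91 ± 0.15 (adjusted p = 3.48e-07). On the PWK side, Myom2, a myomesin of the sarcomere's M-band, was at 982 ± 114 CPM in NOD and 2297 ± 312 CPM in PWK, a difference of -1.23 ± 0.17 (adjusted p = 2.25e-08). The translation elongation factor Eef1a1, counted together with those of its near-identical copies that the authors listed, differed by -0.95 ± 0.10 (adjusted p = 4.49e-13). Most copies of Eef1a1 were not listed and could not be added. Libraries of the strains did not overlap in these 5 genes.

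In 7 genes the PWK libraries held at most 3 counts together while the NOD mean was 5 CPM or more, and in 2 genes the reverse was so. Of the former, 3 were named genes rather than predicted models, and of the latter 0. The genes listed by the authors were all above 0 in at least 32 of 63 libraries. A gene seen in PWK alone, or in NOD alone, could therefore not be listed. The counts of 7 and 2 cannot be read as a balance of silent genes between the strains. Ifi27l2a (chr12:103442167-103443680), an interferon-induced gene, had 2369 counts over the NOD libraries, at 3.95 to 18.2 CPM (median 6.78), and 0 over the PWK libraries, so its NOD level was at least 767-fold higher, taking 3 counts over the group (0.0108 CPM) as the limit that a count of 0 allows. Fam19a2 (chr10:123264076-123741204), which encodes a secreted chemokine-like protein, had 1978 counts in NOD and 3 in PWK, a ratio of 642 with a 95% counting interval of 219 to 3120. Mndal, an interferon-inducible gene of the chromosome 1 cluster, had 3745 counts in NOD and 3 in PWK, a ratio of 1220 (interval 416 to 5900), but with its near-identical neighbours Mnda, Ifi203, Ifi204 and Ifi205 counted together the difference was 1.39 ± 0.11 (adjusted p = 5.32e-18). Intervals and limits cover counting error only. Whether sequence differences between PWK and the B6 reference lowered the counts of PWK reads was not tested.

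Several of the largest differences of single genes were no longer called once near-identical copies were summed. The mitochondrially encoded oxidase subunit mt-Co2 was at 5169 to 7270 CPM (median 5946) in NOD and 29.3 to 51.7 CPM (median 39.5) in PWK, a log2 difference of 7.24 ± 0.18, yet with its nuclear copies Gm13341 and Gm28661 it differed by 0.04 ± 0.08 (adjusted p = 0.703). The same held for Amd2, an enzyme of polyamine synthesis, at -6.40 ± 0.25 alone and -0.09 ± 0.11 (adjusted p = 0.535) with Amd1 and a pseudogene. Ribosomal protein genes gave the same picture with their pseudogenes, from -5.31 ± 0.20 to -0.06 ± 0.09 (adjusted p = 0.599) for Rpl17, from -3.91 ± 0.25 to -0.05 ± 0.09 (adjusted p = 0.678) for Rpl19, from -3.61 ± 0.11 to 0.01 ± 0.09 (adjusted p = 0.916) for Rpl12 and from -3.45 ± 0.12 to -0.07 ± 0.10 (adjusted p = 0.576) for Rpl27. The values of these single genes are uncertain, since counting can split reads between near-identical copies. A difference stayed where the copies were summed for the interferon-induced GTPase Gbp6, at 3.52 ± 0.25 (adjusted p = 1.71e-18) with Gbp10 and a second Gbp6 entry, with 66.2 to 83.8 CPM in NOD and 5.50 to 9.22 CPM in PWK for Gbp6 alone.

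Ion channel genes differed in both directions and often without overlap. Of 26 tested genes for potassium, sodium and pacemaker channels, 10 were higher in NOD and 11 in PWK. The strains did not overlap in 14 of the 26, against 25.0% of all tested genes, and the median log2 difference was 0.08. The sodium channel subunits Scn4b and Scn4a stood out by size. Scn4b (chr9:45138437-45154152), the beta4 subunit that modulates channel gating, was at 91.2 to 108 CPM (median 98) in NOD and 6.33 to 14.7 CPM (median 9.59) in PWK, a log2 difference of 3.32 ± 0.24 (adjusted p = 1.86e-18). Within 500 kb of it, 8 of 18 tested genes were higher in NOD and 2 in PWK, against 25.5% and 23.6% of all tested genes. The called neighbours included the T cell genes Cd3e and Cd3g, whose highest NOD values came from NOD 5. Such windows were also counted around the other largest genes and are not given here. Scn4a (chr11:106318592-106353288), the alpha subunit that carries the sodium current of skeletal muscle, was at 45.9 to 57.7 CPM (median 51.3) in NOD and 5.19 to 7.81 CPM (median 6.17) in PWK, a difference of 3.04 ± 0.19 (adjusted p = 4.57e-21).

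Several potassium channel subunits were higher in PWK. Kcne1 (chr16:92346001-92359468), the auxiliary subunit that slows the Kcnq1 channel, was at 2.92 to 7.09 CPM (median 4.38) in NOD and 17.7 to 49.5 CPM (median 33.6) in PWK, a log2 difference of -2.83 ± 0.24 (adjusted p = 1.75e-15), without overlap, whereas Kcnq1 itself was at 30.4 ± 3.02 CPM in NOD and 26 ± 2.65 CPM in PWK and did not pass (0.22 ± 0.12, adjusted p = 0.126). Kcnq1 passed in the 16-library fit (0.23, adjusted p = 0.00596). Kcnj14, an inward rectifier, was at 1.56 to 3.6 CPM (median 1.89) in NOD and 4.41 to 8.67 CPM (median 5.29) in PWK, a difference of -1.41 ± 0.23 (adjusted p = 9.03e-07). The transient outward current of the mouse heart is carried by Kv4 channels with the accessory subunit Kcnip2. Kcnip2 and the Kv4 gene Kcnd3 were higher in PWK, and other Kv4 genes are not given here. Kcnip2 was at 102 to 138 CPM (median 115) in NOD and 217 to 304 CPM (median 239) in PWK, a difference of -1.02 ± 0.10 (adjusted p = 1.66e-13). Kcnd3 (Kv4.3) was at 20.2 ± 2.09 CPM in NOD and 33.4 ± 2.91 CPM in PWK, a difference of -0.72 ± 0.07 (adjusted p = 2.53e-14). Kcnj5, a subunit of the acetylcholine-activated channel, was at 79.4 ± 8.08 CPM in NOD and 123 ± 11 CPM in PWK, a difference of -0.63 ± 0.16 (adjusted p = 0.00105). For the pacemaker channels, Hcn2 was higher in NOD, at 14.4 to 21 CPM (median 16.5) in NOD and 6.19 to 7.86 CPM (median 6.97) in PWK, a difference of 1.31 ± 0.16 (adjusted p = 1.43e-10). Hcn4, the main form of the sinus node, was at 5.61 ± 1.38 CPM in NOD and 6.79 ± 1.55 CPM in PWK and did not pass (-0.28 ± 0.24, adjusted p = 0.348).

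In the renin-angiotensin system, which raises blood pressure and acts on heart muscle and fibroblasts, the genes for the precursor and for the converting enzyme Ace were higher in NOD and a receptor gene was higher in PWK. Agt, the precursor of angiotensin, was at 3.62 to 8.74 CPM (median 6.16) in NOD and 0.843 to 2.45 CPM (median 1.56) in PWK, a log2 difference of 1.95 ± 0.26 (adjusted p = 4.5e-09). Ace, which cuts angiotensin I to angiotensin II, was at 58.9 to 85.1 CPM (median 74.4) in NOD and 12.4 to 26.4 CPM (median 18.6) in PWK, a difference of 1.91 ± 0.14 (adjusted p = 2.61e-18). Agtr1a (chr13:30336441-30382867), the type 1 angiotensin II receptor, was at 11.4 to 18.1 CPM (median 15.2) in NOD and 75.6 to 97.9 CPM (median 80.8) in PWK, a difference of -2.42 ± 0.14 (adjusted p = 1.36e-23). None of these 3 genes overlapped between the strains.

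Adrenergic signalling speeds and strengthens the beat through receptors, adenylyl cyclase and cyclic AMP, which phosphodiesterases remove. Of the 21 tested genes of the adrenergic, endothelin and angiotensin list, 6 were higher in NOD and 10 in PWK, with a median of -0.27. The alpha1 receptors Adra1a, at 25.5 ± 2.9 CPM in NOD and 54.2 ± 4.05 CPM in PWK, and Adra1b, at 24.3 ± 2.47 CPM in NOD and 48.1 ± 6.04 CPM in PWK, differed by -1.09 ± 0.19 (adjusted p = 1.95e-06) and -0.99 ± 0.19 (adjusted p = 1.09e-05). Adrb1, the main beta receptor of heart muscle, was at 11.2 ± 1.57 CPM in NOD and 13.5 ± 1.75 CPM in PWK and did not pass (-0.27 ± 0.15, adjusted p = 0.124), though it did in the 16-library fit (-0.27, adjusted p = 0.0136). The cardiac adenylyl cyclases were both higher in PWK, Adcy5 by -0.78 ± 0.10 (adjusted p = 3.82e-10) and Adcy6 by -0.66 ± 0.07 (adjusted p = 1.51e-11). Pde3a, which degrades cyclic AMP, was at 118 to 149 CPM (median 128) in NOD and 238 to 350.2 CPM (median 284) in PWK, a difference of -1.12 ± 0.13 (adjusted p = 3.23e-11), whereas Pde4d, another cyclic AMP phosphodiesterase, was higher in NOD, at 24.8 ± 2.96 CPM in NOD and 11.7 ± 1.69 CPM in PWK, a difference of 1.09 ± 0.14 (adjusted p = 1.02e-09). Chrm2, the muscarinic receptor that slows the heart, was at 184 ± 17.2 CPM in NOD and 277 ± 19.5 CPM in PWK, a difference of -0.59 ± 0.18 (adjusted p = 0.00424).

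The sarcomere's main genes differed little, and genes known from fetal or skeletal muscle accounted for the larger values. Of 11 tested myosin genes, 3 were higher in NOD and 2 in PWK (median 0.12). Of 22 thin filament and titin genes, 7 were higher in NOD and 5 in PWK (median 0.06), the latter 8 in the 16-library fit. Myl1, a light chain of fast skeletal muscle and of the fetal heart, was at 73.8 to 107 CPM (median 84.4) in NOD and 13.1 to 27.3 CPM (median 17.5) in PWK, a log2 difference of 2.16 ± 0.18 (adjusted p = 2.92e-16). Neb, nebulin, a thin filament protein of skeletal muscle, was at 6.1 to 16.8 CPM (median 8.77) in NOD and 0.926 to 2.01 CPM (median 1.37) in PWK, a difference of 2.87 ± 0.30 (adjusted p = 3.48e-12). Mybphl, a myosin-binding protein of atrial muscle, was at 38.2 ± 6.85 CPM in NOD and 21.3 ± 5.7 CPM in PWK, a difference of 0.84 ± 0.20 (adjusted p = 0.000327). Acta1, skeletal alpha-actin, was at 346 to 873 CPM (median 559) in NOD and 147 to 521 CPM (median 209.9) in PWK, a difference of 1.25 ± 0.24 (adjusted p = 1.91e-05), and the highest PWK value, in PWK 6, lay inside the NOD range. Tnnt1, the slow skeletal troponin T, was higher in PWK, at 7.12 ± 1.07 CPM in NOD and 15.3 ± 2.72 CPM in PWK, a difference of -1.11 ± 0.14 (adjusted p = 6.33e-10), as was Myh7b, an ancient myosin heavy chain, at 82.5 ± 3.81 CPM in NOD and 119 ± 14.9 CPM in PWK, a difference of -0.53 ± 0.14 (adjusted p = 0.00172). Tnni1, the fetal form of troponin I, was at a low 0.283 ± 0.167 CPM in NOD and 1.19 ± 0.408 CPM in PWK, a difference of -2.05 ± 0.34 (adjusted p = 7.56e-07).

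Myh7, the slow myosin heavy chain that is fetal in the mouse ventricle, varied most within PWK. Its level was 374 to 796 CPM (median 472) in NOD and 322 to 2405 CPM (median 557) in PWK, and the log2 difference was -0.90 ± 0.33 (adjusted p = 0.0198). The call rested on 2 libraries, since it was -0.69 (adjusted p = 0.0806) without PWK 6 and -0.54 (adjusted p = 0.162) without PWK 9. It was also lost in the 16-library fit (adjusted p = 0.068), and on the deposited log2 values tested with limma (-0.59, adjusted p = 0.11). With these libraries left out in turn, the myosin genes higher in PWK fell from 2 to 1. Myh6 and Myh7 share near-identical sequence, and their sum differed by 0.06 ± 0.09 (adjusted p = 0.581). Most counts of that sum came from Myh6, so it cannot show the direction of Myh7.

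Members of the cardiac stress and fetal list, the natriuretic peptides among them, were higher in NOD or did not pass. The list does not hold Myh7 and Tnni1, given above and called higher in PWK. Of 17 tested cardiac stress and fetal genes, 8 were higher in NOD and 0 in PWK, with a median of 0.47. Without NOD 1, and in the 16-library fit, 1 gene was called higher in PWK. Nppb, which encodes B-type natriuretic peptide, was at 77.2 to 144 CPM (median 118) in NOD and 49.4 to 64.6 CPM (median 55.7) in PWK, a log2 difference of 0.99 ± 0.25 (adjusted p = 0.00085), without overlap. Nppa, the atrial peptide, was at 559.7 to 1036 CPM (median 800.3) in NOD and 397 to 748 CPM (median 659) in PWK and did not pass (0.32 ± 0.21, adjusted p = 0.208), though it did in the 16-library fit (0.32, adjusted p = 0.0472). The metallothionein Mt2, which binds zinc and other metals, was at 6.34 to 26.9 CPM (median 11.7) in NOD and 1.35 to 2.53 CPM (median 1.54) in PWK, a difference of 2.95 ± 0.44 (adjusted p = 6.67e-08). Its neighbour Mt1 was at 27.1 to 61.2 CPM (median 41.4) in NOD and 14.9 to 20.4 CPM (median 17.6) in PWK, a difference of 1.27 ± 0.25 (adjusted p = 1.96e-05). Postn, a matrix protein of activated fibroblasts, was at 46.2 ± 10.04 CPM in NOD and 22.8 ± 2.91 CPM in PWK, a difference of 1.02 ± 0.15 (adjusted p = 9.17e-08). Atrial muscle also makes natriuretic peptides. Of 12 tested atrial genes, 3 were higher in NOD and 2 in PWK (median 0.11), and their summed level ran from 2437 to 3661 CPM in NOD and from 1983 to 3007 CPM in PWK. Sln, the atrial inhibitor of the calcium pump, was at 57.9 ± 11.7 CPM in NOD and 29.5 ± 7.6 CPM in PWK, a difference of 0.97 ± 0.18 (adjusted p = 7.11e-06), and the atrial potassium channel Kcna5 was at 15.6 ± 4.92 CPM in NOD and 26.6 ± 3.98 CPM in PWK, a difference of -0.77 ± 0.17 (adjusted p = 1e-04). The part of atrial tissue in the natriuretic peptide result was not tested.

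Of 21 tested calcium handling genes, 6 were higher in NOD, a share near the 25.5% of all genes, and 1 in PWK (median 0.08). The 16-library fit called 8 and 3. S100a1, a calcium sensor that enhances the calcium pump and release channel, was at 231 to 330.0 CPM (median 274) in NOD and 116 to 142 CPM (median 123) in PWK, a log2 difference of 1.15 ± 0.10 (adjusted p = 2.38e-15). Itpr2, the inositol trisphosphate receptor of cardiomyocytes, was at 63.2 ± 8.79 CPM in NOD and 33.1 ± 2.6 CPM in PWK, a difference of 0.93 ± 0.08 (adjusted p = 3.22e-16). Hrc, the calcium-binding protein of the sarcoplasmic reticulum lumen, was at 997 ± 62.4 CPM in NOD and 649.9 ± 33.5 CPM in PWK, a difference of 0.62 ± 0.06 (adjusted p = 1.14e-14). Cacna1c, the pore of the L-type calcium channel, was the gene called higher in PWK, at 158 ± 10.3 CPM in NOD and 202 ± 14.8 CPM in PWK, a difference of -0.35 ± 0.07 (adjusted p = 1.14e-05). Ryr2, the calcium release channel, was at 3707 ± 484 CPM in NOD and 4379 ± 252 CPM in PWK and did not pass (-0.24 ± 0.13, adjusted p = 0.122), though it did in the 16-library fit (-0.24, adjusted p = 0.00517).

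Cell junction genes split by partner. Gap junctions and the intercalated disc couple heart muscle cells electrically and mechanically. Of 14 tested genes of these structures, 4 were higher in NOD, near the 25.5% of all genes, and 6 in PWK (median -0.07). The desmosomal cadherins went opposite ways, Dsg2 at 53.5 to 69.3 CPM (median 64.8) in NOD and 177 to 201 CPM (median 189) in PWK, a log2 difference of -1.56 ± 0.07 (adjusted p = 1.83e-27). Dsc2 was at 58.8 to 73.2 CPM (median 65.3) in NOD and 34 to 42.8 CPM (median 39) in PWK, a difference of 0.78 ± 0.10 (adjusted p = 6.01e-10). The connexins did so too, with Gja1 (connexin 43, the ventricular form) at 373 ± 44.8 CPM in NOD and 245 ± 35.5 CPM in PWK, a difference of 0.61 ± 0.15 (adjusted p = 0.000602). Gja5 (connexin 40, of atria and the conduction system) was at 14.8 ± 1.81 CPM in NOD and 31.2 ± 5.3 CPM in PWK, a difference of -1.07 ± 0.15 (adjusted p = 5.33e-09). Nrap, an actin-anchoring protein of the disc, was at 1140 ± 87.3 CPM in NOD and 608 ± 79.1 CPM in PWK, a difference of 0.91 ± 0.11 (adjusted p = 1.44e-10). None of these 5 genes overlapped between the strains.

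Of 17 tested dystrophin complex and membrane repair genes, 4 were higher in NOD and 7 in PWK (median -0.09). Trim72, which seals tears in the muscle membrane, was at 280.2 ± 24.4 CPM in NOD and 131 ± 4.73 CPM in PWK, a log2 difference of 1.10 ± 0.12 (adjusted p = 1.95e-12). Sgca, alpha-sarcoglycan, differed by -0.48 ± 0.07 (adjusted p = 7.02e-09).

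Among 17 cardiac transcription factor genes, 1 was higher in NOD and 3 in PWK (median -0.04). Hopx (chr5:77086988-77115121), a homeodomain protein that restrains cardiac growth programmes, was at 45.9 to 60.9 CPM (median 56.8) in NOD and 212 to 255 CPM (median 227) in PWK, a log2 difference of -2.03 ± 0.10 (adjusted p = 7.42e-26). Myocd, the coactivator of muscle genes, was at 49.2 ± 2.55 CPM in NOD and 92 ± 10.6 CPM in PWK, a difference of -0.90 ± 0.15 (adjusted p = 5.88e-07). Hand2, counted with an overlapping transcript, differed by -0.93 ± 0.11 (adjusted p = 1.43e-10). Foxo1, a factor that insulin signalling holds out of the nucleus, was higher in NOD, at 37.4 ± 4.01 CPM in NOD and 25.7 ± 0.872 CPM in PWK, a difference of 0.54 ± 0.09 (adjusted p = 2.34e-07). In 6 of the fits that left out a library (NOD 3, or PWK 4, 5, 6, 7 or 9), 2 factors rather than 1 were called higher in NOD, and in the 16-library fit 5 rather than 3 in PWK.

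Genes of fuel use differed from pathway to pathway. Of 29 tested genes of fatty acid uptake and beta-oxidation, 8 were higher in NOD, near the 25.5% of all genes, and 3 in PWK (median 0.11). The 16-library fit called 13 and 7. Hadh (chr3:131233419-131272101), which performs the third step of beta-oxidation on medium and short chains, was the most abundant exception, at 128 to 208 CPM (median 159) in NOD and 386 to 469.9 CPM (median 411) in PWK, a log2 difference of -1.35 ± 0.10 (adjusted p = 6.38e-18). The means of the other 6 strains ran at 414 to 508 CPM, above the 165 CPM of NOD. The peroxisomal thiolase Acaa1a, with its near-identical copy Acaa1b and an overlapping entry, differed by 0.66 ± 0.06 (adjusted p = 7.91e-14). Slc25a20, which carries acylcarnitines into mitochondria, was at 138 ± 17.8 CPM in NOD and 96.7 ± 9.24 CPM in PWK, a difference of 0.51 ± 0.11 (adjusted p = 7.56e-05). Slc27a1, a fatty acid transporter, was at 108 ± 12.9 CPM in NOD and 148 ± 15.7 CPM in PWK, a difference of -0.45 ± 0.10 (adjusted p = 0.000154). Among 26 genes regulated by PPAR or coating lipid droplets, 4 were higher in NOD and 4 in PWK (median 0.06), both below the shares over all genes, and 7 were higher in NOD in the 16-library fit. Ucp2 (chr7:100493337-100502020), an inner membrane carrier of mitochondria, was at 60.02 to 91.5 CPM (median 74.2) in NOD and 12.9 to 19.3 CPM (median 14) in PWK, a difference of 2.30 ± 0.11 (adjusted p = 7.97e-27). Pdk4, the kinase that shuts pyruvate out of oxidation, was at 904 to 2556 CPM (median 1209) in NOD and 378 to 942 CPM (median 549.7) in PWK, a difference of 1.21 ± 0.38 (adjusted p = 0.00709). The PWK-higher members included Esrrb (-0.63 ± 0.11, adjusted p = 3.04e-06) and Cidea, a lipid droplet protein (-0.55 ± 0.11, adjusted p = 3.1e-05).

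Glucose genes differed chiefly towards NOD. Of 28 tested genes of glucose uptake, glycogen and glycolysis, 12 were higher in NOD and 4 in PWK (median 0.12). The enzymes that set or make the fructose bisphosphates carried large values. Pfkp, the platelet form of phosphofructokinase, was at 153 to 181 CPM (median 167) in NOD and 48.5 to 62.3 CPM (median 56.4) in PWK, a log2 difference of 1.56 ± 0.12 (adjusted p = 7.13e-18). Pfkfb1, which makes its activator, was at 10.5 to 15.4 CPM (median 13.7) in NOD and 2.05 to 3.62 CPM (median 2.81) in PWK, a difference of 2.23 ± 0.18 (adjusted p = 1.76e-16). Gaa, the lysosomal enzyme that digests glycogen, was at 146 to 186 CPM (median 166) in NOD and 59.5 to 79.7 CPM (median 72.5) in PWK, a difference of 1.24 ± 0.08 (adjusted p = 5.2e-20). Slc2a1, the insulin-independent glucose transporter, was at 12.4 ± 1.5 CPM in NOD and 6.09 ± 0.676 CPM in PWK, a difference of 1.03 ± 0.14 (adjusted p = 3.75e-09). In PWK, Gapdh summed with those of its copies that the authors listed was higher by -0.90 ± 0.11 (adjusted p = 2.19e-10). Most near-identical copies of Gapdh were not listed, so reads counted to them could not be added. Pygb, a glycogen phosphorylase, was at 187 ± 10.8 CPM in NOD and 366 ± 23.3 CPM in PWK, a difference of -0.97 ± 0.13 (adjusted p = 3.49e-09).

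Of 30 tested TCA cycle and pyruvate entry genes, 11 were higher in NOD and 3 in PWK (median 0.14), with Ogdhl among the former. The 16-library fit called 17 higher in NOD. Idh3b, a subunit of isocitrate dehydrogenase, was at 427 ± 42.8 CPM in NOD and 266 ± 14.2 CPM in PWK, a log2 difference of 0.68 ± 0.07 (adjusted p = 5.51e-12). Mpc1, a subunit of the mitochondrial pyruvate carrier, counted with an overlapping transcript, differed by 0.70 ± 0.08 (adjusted p = 8.22e-12). Suclg2, the GTP-forming subunit of succinyl-CoA ligase, was at 97.6 ± 5.78 CPM in NOD and 206 ± 12.6 CPM in PWK; with a copy it differed by -1.08 ± 0.10 (adjusted p = 1.41e-14). Of 20 genes for ketone bodies and branched-chain amino acids, 10 were higher in NOD and 5 in PWK (median 0.2), the latter falling to 3 without NOD 1, 3 or 4 or PWK 7. Bdh1 (chr16:31422280-31458901), which begins ketone body oxidation, was at 176 to 294 CPM (median 234) in NOD and 32.8 to 59.8 CPM (median 53.1) in PWK; with an overlapping transcript it differed by 2.22 ± 0.19 (adjusted p = 4.44e-15). Pccb, a subunit of propionyl-CoA carboxylase, was at 73.5 to 93.9 CPM (median 81.2) in NOD and 34.6 to 36.9 CPM (median 35.8) in PWK, a difference of 1.19 ± 0.06 (adjusted p = 2.23e-27). The cytosolic transaminase of branched-chain amino acids, Bcat1, differed by 1.58 ± 0.27 (adjusted p = 9.99e-07) and the mitochondrial one, Bcat2, by -0.69 ± 0.08 (adjusted p = 1.51e-11). Mut, which takes the product of propionyl-CoA carboxylase on towards succinyl-CoA, was at 127 ± 5.72 CPM in NOD and 192 ± 6.64 CPM in PWK, a difference of -0.59 ± 0.13 (adjusted p = 7.36e-05).

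Sterol synthesis and lipogenesis leaned towards PWK, with 7 of 27 tested genes higher in NOD and 14 in PWK (median -0.32). Acaca, which commits acetyl-CoA to fatty acids, was at 20.1 to 42.8 CPM (median 23.1) in NOD and 40.0 to 105 CPM (median 62.4) in PWK, a log2 difference of -1.38 ± 0.24 (adjusted p = 3.27e-06). Fasn, fatty acid synthase, was at 35.1 to 132 CPM (median 50.8) in NOD and 56.7 to 352 CPM (median 121) in PWK, a difference of -1.33 ± 0.42 (adjusted p = 0.0066). Elovl6, which lengthens its product, was at 1.13 to 5.13 CPM (median 2.41) in NOD and 1.79 to 39.7 CPM (median 9.7) in PWK, a difference of -2.33 ± 0.52 (adjusted p = 0.000163). In these 3 genes the strains overlapped, and the NOD maximum of Acaca and Fasn came from NOD 3. Srebf1, the regulator of lipogenesis, differed by -0.68 ± 0.13 (adjusted p = 1.15e-05), and Sqle, of the sterol branch, by -1.19 ± 0.17 (adjusted p = 3.47e-08). Members of the list also went the other way. Scd4, a heart form of stearoyl-CoA desaturase, was at 7.38 to 18.4 CPM (median 10.1) in NOD and 1.02 to 2.19 CPM (median 1.3) in PWK, a difference of 3.01 ± 0.26 (adjusted p = 2.7e-15). Dhcr7, the last step to cholesterol, was at 6.53 ± 0.547 CPM in NOD and 3.12 ± 0.697 CPM in PWK, a difference of 1.07 ± 0.13 (adjusted p = 2.57e-10). Thrsp, a lipogenic factor, was at 13.3 to 19.5 CPM (median 15.5) in NOD and 1.79 to 18.8 CPM (median 4.5) in PWK, a difference of 1.21 ± 0.30 (adjusted p = 0.000681). Adipocytes also express lipogenic genes. The summed level of 13 adipocyte and brown fat markers was 441 to 702 CPM in NOD and 394 to 692 CPM in PWK, and the brown fat gene Ucp1 was at 0 to 9.81 CPM (median 0.457) in NOD and 0.0544 to 50.5 CPM (median 1.86) in PWK. Its difference of -2.50 ± 0.99 (adjusted p = 0.032) was lost without any of NOD 4 to 8 or of PWK 3 and 4, at -1.76 (adjusted p = 0.145) without PWK 3 and -1.81 (adjusted p = 0.133) without PWK 4, the libraries with the highest sums in PWK. Ucp1 was at -3.37 (adjusted p = 0.00863) without NOD 1, and its call was also lost in the 16-library fit (adjusted p = 0.112) and with the DESeq2 test (adjusted p = 0.0579). Counted over the list, 0 markers were higher in NOD and 2 in PWK (median -0.43), the latter 1 in the 16-library fit. The part of fat cells in the lipogenic result was not tested.

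Of 25 tested insulin and IGF signalling genes, 7 were higher in NOD and 4 in PWK (median 0.1). The former was near the 25.5% of all genes and the latter below the 23.6%. Binding proteins of the growth factors moved in both directions. Igfbp3 was at 18.8 ± 5.47 CPM in NOD and 40.8 ± 9.29 CPM in PWK, a log2 difference of -1.11 ± 0.25 (adjusted p = 0.000141). Igfbp4 was at 75.7 ± 9.73 CPM in NOD and 40.4 ± 7.54 CPM in PWK, a difference of 0.91 ± 0.12 (adjusted p = 2.31e-09). Igfbp6 was at 23.4 ± 2.89 CPM in NOD and 13 ± 4.28 CPM in PWK, a difference of 0.85 ± 0.20 (adjusted p = 0.000247). Igf2, the fetal growth factor, was higher in PWK, at 21.8 ± 2.04 CPM in NOD and 36.5 ± 4.23 CPM in PWK, a difference of -0.74 ± 0.12 (adjusted p = 4.97e-07).

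The respiratory chain differed least among the mitochondrial groups. Of 41 tested nuclear genes for its subunits, 6 were higher in NOD and 4 in PWK (median 0.01), below the shares over all genes. Without both NOD 3 and NOD 5, 11 rather than 6 were higher in NOD. Cox7a1, the muscle form of an oxidase subunit, was at 246 ± 33.1 CPM in NOD and 144 ± 13.6 CPM in PWK, a log2 difference of 0.77 ± 0.12 (adjusted p = 5.74e-08), and its widely expressed counterpart Cox7a2 at 186 ± 19.2 CPM in NOD and 256 ± 8.35 CPM in PWK, a difference of -0.46 ± 0.08 (adjusted p = 1.26e-06). Cox4i2, an isoform induced by low oxygen, differed by -1.02 ± 0.14 (adjusted p = 1.02e-08), and the complex III core subunit Uqcrc1 by 0.30 ± 0.05 (adjusted p = 6.71e-06). Of 13 tested genes of the mitochondrial genome, 5 were higher in NOD and 2 in PWK (median 0.08), before copies were summed, the former 3 without NOD 3 and NOD 5. With its nuclear copy mt-Nd2 differed by 0.42 ± 0.09 (adjusted p = 6.79e-05), mt-Co3 by -0.22 ± 0.07 (adjusted p = 0.00954) and mt-Nd4l by -0.19 ± 0.12 (adjusted p = 0.174), the last having stood at 5.45 ± 0.13 alone. mt-Atp8, with no such copy found, was at 754 to 2121 CPM (median 1079) in NOD and 266 to 1795 CPM (median 581) in PWK, a difference of 0.79 ± 0.27 (adjusted p = 0.0113). That call was lost in the 16-library fit (adjusted p = 0.074) and without NOD 3 and NOD 5 (0.48, adjusted p = 0.154). The mitochondrial genome took 19.47 ± 0.877% of the counts in NOD and 17.79 ± 1.13% in PWK (SD), 1.679 percentage points more in NOD (two-sided exact permutation test over 12870 splits, p = 0.00482). With 11 near-identical nuclear copies added, the shares were 22.46 ± 1.03% and 21.88 ± 1.56% and did not differ beyond the spread (exact permutation p = 0.397).

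Glutathione and oxidative stress genes gave 17 of 41 tested members higher in NOD and 12 in PWK (median 0.14). The glutathione S-transferases, which couple glutathione to electrophiles, differed in both directions within a family. Gstm2 was at 62.3 to 80.8 CPM (median 74.5) in NOD and 17.7 to 24.4 CPM (median 19.8) in PWK, a log2 difference of 1.82 ± 0.11 (adjusted p = 5.01e-23), whereas Gstm6, a neighbour on chromosome 3, was at 0.78 to 1.91 CPM (median 1.04) in NOD and 4.12 to 5.92 CPM (median 5.23) in PWK, a difference of -2.23 ± 0.16 (adjusted p = 1.03e-18). Gsta3 was at 7.23 ± 1.49 CPM in NOD and 1.56 ± 0.311 CPM in PWK, a difference of 2.21 ± 0.22 (adjusted p = 8.48e-13). Gstt2 was at 1.97 ± 0.28 CPM in NOD and 5.75 ± 0.491 CPM in PWK, a difference of -1.55 ± 0.15 (adjusted p = 3.48e-14). Gsta1 with its copies differed by 3.55 ± 0.28 (adjusted p = 4.46e-17). Nqo1, a quinone reductase under NRF2, was at 41.2 ± 4.37 CPM in NOD and 20.3 ± 2.27 CPM in PWK, a difference of 1.02 ± 0.09 (adjusted p = 7.18e-15). Glo1, which clears methylglyoxal, was at 68.8 to 82 CPM (median 73.1) in NOD and 102 to 113 CPM (median 108) in PWK, a difference of -0.55 ± 0.07 (adjusted p = 1.21e-10), without overlap. Nnt, the mitochondrial transhydrogenase, was at 810.0 ± 47.8 CPM in NOD and 846 ± 50.9 CPM in PWK and did not pass (-0.06 ± 0.13, adjusted p = 0.729).

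Chaperone genes were higher in PWK. Heat shock factors switch on cytosolic chaperones when proteins unfold, and a separate response, the unfolded protein response, does so in the endoplasmic reticulum (ER). Of 22 tested heat shock and chaperone genes, 0 were higher in NOD and 13 in PWK (median -0.41), against 23.6% of all genes higher in PWK. The 16-library fit called 2 higher in NOD and 13 in PWK. The inducible Hspa1a and its near-identical neighbour Hspa1b differed by -2.23 ± 0.66 (adjusted p = 0.00381) when summed. Hspa1a alone was at 7.61 to 40.0 CPM (median 23.3) in NOD and 24.8 to 352 CPM (median 113) in PWK. Within PWK the values were uneven, with 223 to 352 CPM of Hspa1a in PWK 3, 4 and 5 and 24.8 to 123 CPM in the other 5, and 3 of these lay inside the NOD range. PWK 3, 4 and 5 were all low in Xist, as was PWK 9 among the other 5, and the part of sex was not tested. The cofactor Dnajb1 was at 22.4 to 40.8 CPM (median 29.4) in NOD and 27 to 104 CPM (median 52.6) in PWK, a difference of -0.95 ± 0.29 (adjusted p = 0.0057). Hsph1, an exchange factor of the same chaperones, was at 66.4 to 115 CPM (median 80.8) in NOD and 90.4 to 216 CPM (median 119.7) in PWK, a difference of -0.71 ± 0.26 (adjusted p = 0.0228). The count of 13 fell to 8 without PWK 3 or without PWK 4, and Hsph1 did not pass without either (-0.58, adjusted p = 0.0696 and 0.0692), nor did Hspa1b by itself (-1.5, adjusted p = 0.0661, and -1.58, adjusted p = 0.053). Hspa1l, a constitutive relative, did not overlap between the strains and differed by -1.11 ± 0.14 (adjusted p = 5e-10) with an overlapping entry.

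ER chaperones were higher in PWK without such unevenness. A list of 20 ER chaperone and unfolded protein response genes, chosen after values had been seen, held 2 genes higher in NOD and 12 in PWK (median -0.39). It shares Hspa5 with the heat shock list. Hspa5 (BiP), the master chaperone of the ER, was at 501 to 586 CPM (median 519) in NOD and 619.8 to 937 CPM (median 787) in PWK, a log2 difference of -0.58 ± 0.15 (adjusted p = 0.000642). Hsp90b1 was at 345 to 441 CPM (median 372) in NOD and 481 to 646 CPM (median 567.5) in PWK, a difference of -0.59 ± 0.10 (adjusted p = 2.03e-06). The lectin chaperone Calr was at 201 to 258 CPM (median 218) in NOD and 267 to 366 CPM (median 318) in PWK, a difference of -0.55 ± 0.09 (adjusted p = 1.93e-06). Pdia6, which forms disulfide bonds, was at 62.4 to 73 CPM (median 70.0) in NOD and 94.7 to 131 CPM (median 111) in PWK, a difference of -0.73 ± 0.10 (adjusted p = 2.14e-08). All 8 PWK libraries lay above all 8 NOD libraries in these 4 genes. Other targets of the same response went towards NOD. Herpud1, of ER-associated degradation, was at 156 to 214 CPM (median 194) in NOD and 83 to 113 CPM (median 103) in PWK, a difference of 0.91 ± 0.15 (adjusted p = 3.97e-07). Ddit3 (CHOP), a factor of prolonged stress, was at 11.5 ± 0.512 CPM in NOD and 8.83 ± 1.44 CPM in PWK, a difference of 0.38 ± 0.15 (adjusted p = 0.0245). The call of Ddit3 was lost without PWK 2 or PWK 7 (adjusted p up to 0.0549).

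The promoters of the 4 ER chaperones are shown because their genes moved together and each held the ER stress response element. They are the 250 bases before the start site in RefSeq on GRCm38.p6, 5′ to 3′ on the gene's strand, at chr2:34771840-34772089 (plus strand) for Hspa5, chr10:86705445-86705694 (minus) for Hsp90b1, chr8:84846932-84847181 (minus) for Calr and chr12:17266339-17266588 (plus) for Pdia6. Capitals mark matches to the element, CCAAT and CCACG with 9 bases of any kind between them, on either strand (on the other strand CGTGG and ATTGG). The motif was searched as these letters only.
Hspa5: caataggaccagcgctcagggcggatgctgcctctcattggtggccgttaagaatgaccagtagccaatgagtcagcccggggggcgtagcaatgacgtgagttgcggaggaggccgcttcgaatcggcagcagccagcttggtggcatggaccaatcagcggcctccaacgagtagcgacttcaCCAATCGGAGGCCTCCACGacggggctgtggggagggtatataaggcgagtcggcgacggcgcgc
Hsp90b1: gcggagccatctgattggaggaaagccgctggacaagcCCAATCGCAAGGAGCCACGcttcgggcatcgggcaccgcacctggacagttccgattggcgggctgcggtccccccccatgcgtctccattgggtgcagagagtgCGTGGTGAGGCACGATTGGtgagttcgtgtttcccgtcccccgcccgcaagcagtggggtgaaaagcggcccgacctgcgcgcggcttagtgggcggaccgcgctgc
Calr: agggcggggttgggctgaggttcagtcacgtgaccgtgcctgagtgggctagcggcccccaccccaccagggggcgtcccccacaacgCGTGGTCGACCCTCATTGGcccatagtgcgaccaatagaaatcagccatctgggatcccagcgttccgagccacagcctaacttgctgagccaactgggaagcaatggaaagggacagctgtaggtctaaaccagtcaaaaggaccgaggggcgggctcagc
Pdia6: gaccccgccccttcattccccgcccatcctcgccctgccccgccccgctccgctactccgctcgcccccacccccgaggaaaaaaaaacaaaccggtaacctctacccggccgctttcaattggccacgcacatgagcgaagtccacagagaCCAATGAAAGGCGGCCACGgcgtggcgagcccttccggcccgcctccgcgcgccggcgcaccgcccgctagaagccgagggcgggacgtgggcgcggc
Hsp90b1 held 2 matches and the others 1 each.

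Among genes with a promoter of this length in RefSeq, 35 of 27025 held the element (0.13%), as did 18 of 11387 tested genes (0.158%). In the ER list 7 of 17 matched members held it (41.2%). That list gathers genes of the same response, so its share describes the list and not a difference between NOD and PWK. Besides the 4 shown, Canx, Creld2 and Dnajc3 held it, and none of those 3 passed the test between the strains, though Creld2 did in the 16-library fit (-0.27, adjusted p = 0.035). The heat shock element was searched on both strands as GAA, TTC and GAA with 2 bases of any kind between neighbours. It was in 139 of the 27025 genes (0.514%), in 54 of the 11387 tested genes (0.474%) and in 2 of 17 matched heat shock genes (11.8%), Hspd1 and Hspe1. A match describes the letters of the reference strain B6 and not PWK or NOD sequence, nor binding of a factor.

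Immediate early genes, which switch on within minutes of a stimulus, were higher in NOD and varied widely from library to library. Of 20 tested, 10 were higher in NOD and 0 in PWK (median 0.68). Fosb was at 1.85 to 56.4 CPM (median 31.9) in NOD and 1.13 to 30.5 CPM (median 3.9) in PWK, a log2 difference of 2.08 ± 0.73 (adjusted p = 0.0158) and of 2.99 (adjusted p = 0.00118) without PWK 3. Egr2 was at 2.39 to 7.19 CPM (median 3.37) in NOD and 0.353 to 3.72 CPM (median 0.776) in PWK, a difference of 1.75 ± 0.43 (adjusted p = 0.000554). Fos was at 17.2 to 106 CPM (median 61.4) in NOD and 8.06 to 74.2 CPM (median 18.7) in PWK, a difference of 1.25 ± 0.45 (adjusted p = 0.0194). Egr1 was at 18.7 to 168 CPM (median 100.1) in NOD and 12 to 83.1 CPM (median 25.4) in PWK, a difference of 1.56 ± 0.43 (adjusted p = 0.00215). Btg2 was at 59.1 to 183 CPM (median 110.5) in NOD and 33.4 to 84.4 CPM (median 44.8) in PWK, a difference of 1.26 ± 0.24 (adjusted p = 1.12e-05). Junb was at 12.4 to 50.8 CPM (median 32) in NOD and 8.34 to 26.4 CPM (median 12) in PWK, a difference of 1.19 ± 0.25 (adjusted p = 4.87e-05). The strains overlapped in all 6 genes, and PWK 3 was the highest PWK library for Fosb, Egr2 and Fos. The time from death to freezing was not in the labels, and its part in these values was not tested.

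**Figure D3:**
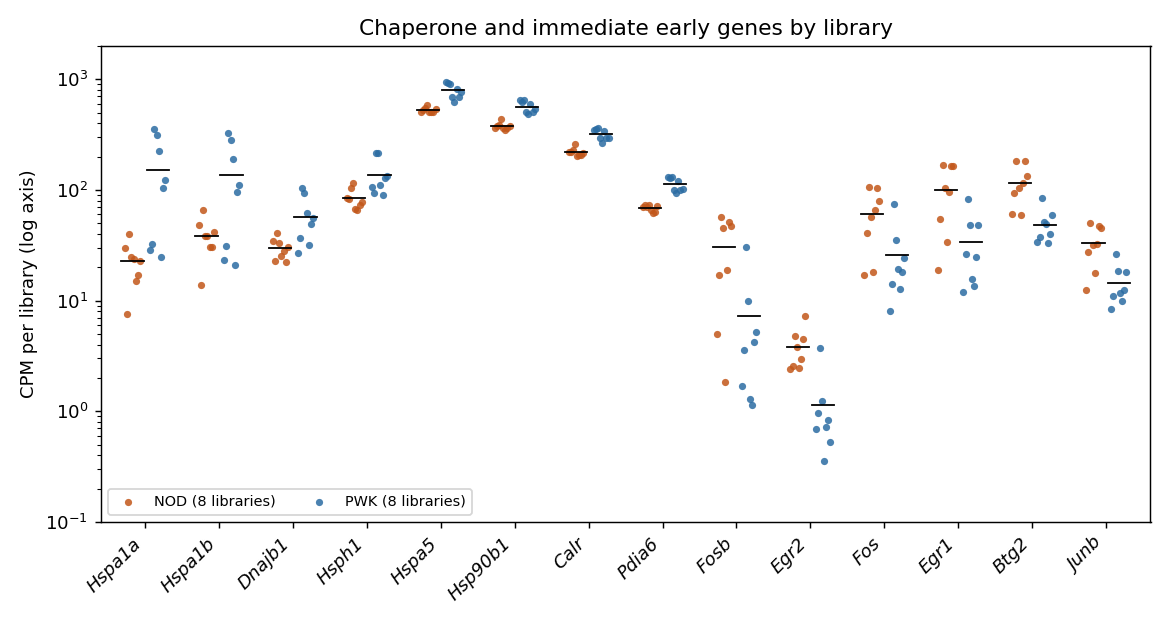
CPM per library on a log axis for 14 chaperone and immediate early genes, 8 points per strain with a bar at each mean. PWK points lie above NOD points without overlap for Hspa5, Hsp90b1, Calr and Pdia6, whereas Hspa1a, Fosb, Fos and the other panels overlap.

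Glucocorticoid-induced genes, a list that shares Mt1, Mt2 and Pdk4 with those above, were 6 of 18 higher in NOD and 0 in PWK (median 0.38). Sgk1, a kinase that regulates sodium transport, was at 40.9 to 115 CPM (median 81.8) in NOD and 35.9 to 53.9 CPM (median 44.4) in PWK, a log2 difference of 0.86 ± 0.16 (adjusted p = 6.25e-06). Lcn2, a secreted lipid carrier, was at 1.9 ± 0.397 CPM in NOD and 0.725 ± 0.151 CPM in PWK, a difference of 1.39 ± 0.53 (adjusted p = 0.0258), which did not pass on the deposited log2 values tested with limma (0.41, adjusted p = 0.159). Clock genes, which set daily rhythm, were 1 of 20 higher in NOD and 3 in PWK (median -0.04). The NOD count was 0 without any of NOD 5 and 8 or PWK 2, 3, 4 and 9, and 2 in the 16-library fit. Bhlhe41, a repressor of the clock, differed by -1.05 ± 0.20 (adjusted p = 1.31e-05) with an overlapping transcript, Nr1d1 (Rev-erb alpha) by -0.68 ± 0.22 (adjusted p = 0.0092) and Clock by -0.50 ± 0.11 (adjusted p = 7.38e-05). Dbp, a strongly rhythmic output of the clock, was at 0.994 to 4.52 CPM (median 2.32) in NOD and 0.938 to 18 CPM (median 4.46) in PWK and did not pass (-1.41 ± 0.72, adjusted p = 0.103). The time of day at collection was not in the labels.

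The immune calls depended in part on single libraries. MHC class II molecules present peptides to helper T cells and are made by B cells, macrophages and dendritic cells. Of 9 tested genes of this group, 4 were higher in NOD and 0 in PWK (median 0.47). H2-Eb1, the E beta chain, was at 4.7 to 28.6 CPM (median 7.52) in NOD and 0.435 to 0.722 CPM (median 0.574) in PWK, a log2 difference of 4.19 ± 0.38 (adjusted p = 2.6e-14), and the strains did not overlap. H2-Aa, the A alpha chain, was at 6.39 to 51 CPM (median 11.8) in NOD and 6.53 to 21.3 CPM (median 13.9) in PWK and did not pass (0.23 ± 0.33, adjusted p = 0.587). H2-Ab1, the A beta chain, was at 4.16 to 23.1 CPM (median 6.89) in NOD and 3.89 to 10.2 CPM (median 7.48) in PWK and did not pass either (0.26 ± 0.30, adjusted p = 0.504). Without NOD 3, the library with the B cell markers, both turned to the PWK side, H2-Aa at -0.25 (adjusted p = 0.524) and H2-Ab1 at -0.12 (adjusted p = 0.757). Without NOD 3 and NOD 5, H2-Eb1 differed by 3.57 (adjusted p = 2.44e-13). H2-Ob was at 0.297 to 5.99 CPM (median 1.05) in NOD and 0.165 to 1.37 CPM (median 0.426) in PWK, a difference of 1.61 ± 0.41 (adjusted p = 0.000662). Without NOD 3 it was 0.87 (adjusted p = 0.0415), and without NOD 3 and NOD 5 it was 0.76 and did not pass (adjusted p = 0.0925). Without NOD 3 the calls of H2-DMb2 (from 1.86 ± 0.54, adjusted p = 0.0031, to 0.53, adjusted p = 0.366) and of the class II regulator Ciita (from 0.91 ± 0.32, adjusted p = 0.0151, to 0.45, adjusted p = 0.22) were lost. The count of 4 became 2 without NOD 3, 1 without NOD 3 and NOD 5 together, and 2 on the deposited log2 values.

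MHC class I molecules show peptides from inside every cell to killer T cells, and these genes are strongly polymorphic. Of 19 tested genes of class I and peptide loading, 9 were higher in NOD and 4 in PWK (median 0.51). H2-D1, a classical class I gene, was at 83.6 to 149 CPM (median 106) in NOD and 31.8 to 46.9 CPM (median 43.1) in PWK; with its copy H2-K1 it differed by 1.10 ± 0.20 (adjusted p = 8.5e-06). H2-Q4 was at 13.5 to 29.8 CPM (median 17.4) in NOD and 3.4 to 5.63 CPM (median 4.6) in PWK, a log2 difference of 2.00 ± 0.22 (adjusted p = 2.7e-11), H2-Q7 with its copy differed by 3.77 ± 0.43 (adjusted p = 4.74e-11) and H2-Q6 by 3.05 ± 0.37 (adjusted p = 4.51e-10). The direction of H2-T22 turned from -1.37 ± 0.22 to 1.38 ± 0.17 (adjusted p = 1.56e-10) when summed with H2-T10 and an overlapping entry. H2-T23 differed by -0.51 ± 0.20 (adjusted p = 0.0251), and with its overlapping transcript by -0.41 ± 0.19 (adjusted p = 0.0706); its call was also lost without NOD 6, NOD 7 or PWK 1 (adjusted p up to 0.0634). The peptide pump Tap1 was at 6.45 ± 2.06 CPM in NOD and 4.04 ± 0.795 CPM in PWK, a difference of 0.67 ± 0.25 (adjusted p = 0.0239), lost without NOD 3 (0.53, adjusted p = 0.0833) or PWK 9 (0.60, adjusted p = 0.0535). Psmb8, of the immunoproteasome, differed by 0.61 ± 0.22 (adjusted p = 0.0195), a call lost without NOD 3 and NOD 5 (0.46, adjusted p = 0.112). B2m, the shared light chain, was at 119 ± 28.6 CPM in NOD and 110.0 ± 20.8 CPM in PWK and did not pass (0.11 ± 0.18, adjusted p = 0.648).

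Interferon-stimulated genes were no block of genes moving together. Of 28 tested, 5 were higher in NOD and 7 in PWK (median -0.21). The antiviral GTPases Mx1 and Mx2 share near-identical sequence and differed by -3.03 ± 0.19 (adjusted p = 5.12e-22) when summed. Mx1 alone was at 0.174 to 0.393 CPM (median 0.225) in NOD and 1.65 to 5.73 CPM (median 4.04) in PWK, a log2 difference of -3.86 ± 0.28 (adjusted p = 6.07e-19), without overlap. Xaf1, a pro-apoptotic gene, was at 4.1 to 6.71 CPM (median 5.55) in NOD and 14.1 to 30.9 CPM (median 22.5) in PWK, a difference of -2.11 ± 0.16 (adjusted p = 3.32e-18). Ifi27, a neighbour of Ifi27l2a, was higher in NOD, at 9.06 to 15.1 CPM (median 12.6) in NOD and 1.85 to 2.86 CPM (median 2.58) in PWK, a difference of 2.30 ± 0.15 (adjusted p = 9.17e-21), as was Oas2, a sensor of double-stranded RNA, at 5.18 to 10.3 CPM (median 7.41) in NOD and 0.461 to 3.8 CPM (median 2.7) in PWK, a difference of 1.56 ± 0.23 (adjusted p = 3.47e-08). Ifit3 with its copy Ifit3b differed by 0.72 ± 0.23 (adjusted p = 0.00703). Without both NOD 3 and NOD 5, 3 rather than 5 were higher in NOD. Of 14 immunity-related and guanylate-binding GTPases, 4 were higher in NOD and 3 in PWK (median 0.25), the former 2 without NOD 3 or without PWK 9. Irgm1, which acts against bacteria inside cells, was at 13.6 ± 0.998 CPM in NOD and 7 ± 1.09 CPM in PWK, a difference of 0.95 ± 0.16 (adjusted p = 1.05e-06), and Gbp3 and Gbp5 were higher in PWK, by -1.83 ± 0.25 (adjusted p = 1.17e-08) and -0.88 ± 0.21 (adjusted p = 0.000261).

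Complement genes were 3 of 21 higher in NOD and 2 in PWK (median 0.2), and 5 were higher in NOD without NOD 6 or without PWK 2, as with the DESeq2 test and on the deposited log2 values, and 6 in the 16-library fit. Cd59a (chr2:104095801-104115354), which protects cells from the membrane attack complex, was at 58.5 to 68.3 CPM (median 61.8) in NOD and 7.27 to 8.97 CPM (median 7.78) in PWK, a log2 difference of 2.96 ± 0.09 (adjusted p = 5.99e-37), without overlap. Masp1, a protease of the lectin pathway, was at 13.1 ± 1.75 CPM in NOD and 20.6 ± 1.93 CPM in PWK, a difference of -0.65 ± 0.14 (adjusted p = 4.74e-05). Cfb, of the alternative pathway, differed by 0.88 ± 0.36 (adjusted p = 0.0373), a call lost without any of NOD 1, 3 and 5 and PWK 4, 7 and 9 (adjusted p up to 0.111). C4a alone differed by -1.63 ± 0.26, but with its near-identical copy C4b by 0.33 ± 0.29 (adjusted p = 0.371). Hc, complement C5, was not tested because its counts were too few, with mean levels of 0.0176 CPM in NOD and 0 in PWK.

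T and NK cell markers were 7 of 10 tested genes higher in NOD and 2 in PWK (median 1.98). The NOD count fell to 3 without NOD 5 and on the deposited log2 values. The 16-library fit tested 4 of the markers, of which 2 were higher in NOD and 2 in PWK, and with no filter on low counts 14 of 21 were higher in NOD. Cd4 was at 0.572 to 24.7 CPM (median 0.873) in NOD and 0.132 to 0.342 CPM (median 0.278) in PWK, a log2 difference of 3.98 ± 0.57 (adjusted p = 2.69e-08) and of 2.15 (adjusted p = 5.05e-06) without NOD 5. Cd3g was at 0 to 8.98 CPM (median 0.26) in NOD and 0 to 0.163 CPM (median 0.0612) in PWK, a difference of 4.41 ± 0.70 (adjusted p = 3.03e-07) and of 2.46 (adjusted p = 0.000182) without it, and Cd3e went from 3.96 ± 0.68 (adjusted p = 1.62e-06) to 2.36 (adjusted p = 0.000519). Lck, the kinase of the T cell receptor, was at 0 to 33.1 CPM (median 0.305) in NOD and 0.132 to 0.451 CPM (median 0.335) in PWK, and its difference of 3.86 ± 0.73 (adjusted p = 1.16e-05) became 1.05 (adjusted p = 0.0915) without NOD 5, 0.94 (adjusted p = 0.141) with the DESeq2 test and -0.40 (adjusted p = 0.536) without NOD 3 and NOD 5. Cd28 and Ctla4, the paired co-receptors of T cells, went towards PWK, Cd28 at 5.11 to 13.2 CPM (median 5.83) in NOD and 10.6 to 16 CPM (median 13.9) in PWK, a difference of -0.97 ± 0.18 (adjusted p = 1.1e-05). Ctla4 was at 0.824 to 1.46 CPM (median 1.12) in NOD and 2.5 to 4.41 CPM (median 3.48) in PWK, a difference of -1.62 ± 0.22 (adjusted p = 3.3e-09). The summed T and NK level, at a median of 9.38 CPM in NOD and 18.7 CPM in PWK, ran against the count of genes, and Cd28 alone made a median of 5.83 CPM of it in NOD and 13.9 CPM in PWK.

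B and plasma cell markers were 0 of 14 higher in either strain (median 0.88). Ighm, the heavy chain of IgM, was at 2.56 to 140.4 CPM (median 17.9) in NOD and 3.56 to 61.4 CPM (median 15.1) in PWK and did not pass (0.74 ± 0.62, adjusted p = 0.332), and Cd79a at 0.149 to 12.9 CPM (median 0.826) in NOD and 0.297 to 3.26 CPM (median 0.764) in PWK did not pass either (1.14 ± 0.57, adjusted p = 0.0961). Without NOD 3 both turned to the PWK side, Cd79a at -0.47 (adjusted p = 0.467) and Ighm at -0.25 (adjusted p = 0.767). Without PWK 2, 7 markers were called higher in NOD, Cd79a among them at 1.66 (adjusted p = 0.018). Without NOD 6, 2 were called, including Cd79a at 1.32 (adjusted p = 0.0494), and 1 without NOD 2 or NOD 7.

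Macrophage markers were 8 of 18 higher in NOD and 2 in PWK (median 0.35). Folr2 (chr7:101839990-101845331), the folate receptor of resident macrophages, was at 4.41 to 5.36 CPM (median 4.98) in NOD and 0.396 to 1.204 CPM (median 0.767) in PWK, a log2 difference of 2.67 ± 0.21 (adjusted p = 2.8e-17), without overlap. Lyz2, lysozyme, was at 83.7 to 185 CPM (median 109) in NOD and 25.7 to 87.1 CPM (median 48) in PWK; with its copy it differed by 1.27 ± 0.20 (adjusted p = 3.11e-07). Cd163, a haemoglobin scavenger receptor, was higher in PWK, at 17.6 ± 1.58 CPM in NOD and 24.8 ± 3.08 CPM in PWK, a difference of -0.49 ± 0.15 (adjusted p = 0.00545). Cx3cr1, the fractalkine receptor, differed by -0.64 ± 0.27 (adjusted p = 0.0419), a call lost in 11 of the 16 fits that left out a library (adjusted p up to 0.0762). The summed level of the 18 markers was 229 to 374 CPM (median 266) in NOD and 143 to 265 CPM (median 206) in PWK. Lyz2 alone made a median of 109 CPM of it in NOD and 48 CPM in PWK, so the sum followed that gene closely. Neutrophil and mast cell markers were 2 of 10 higher in NOD and 0 in PWK (median 0.47), namely Mmp9 (2.45 ± 0.52, adjusted p = 6.56e-05) and Mcpt4 (1.67 ± 0.37, adjusted p = 0.000103).

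Of 25 tested chemokine and cytokine genes, 8 were higher in NOD and 7 in PWK (median 0.05). Ccl24, which attracts eosinophils, was at 2.45 ± 0.501 CPM in NOD and 0.576 ± 0.184 CPM in PWK, a log2 difference of 2.08 ± 0.27 (adjusted p = 1.3e-09). Ccl6 was at 10.4 ± 3.52 CPM in NOD and 3.78 ± 0.709 CPM in PWK, a difference of 1.46 ± 0.25 (adjusted p = 1.28e-06). In PWK, Il15, which sustains NK and memory T cells, was at 1.15 to 1.93 CPM (median 1.53) in NOD and 9.32 to 13.4 CPM (median 11.7) in PWK, a difference of -2.88 ± 0.14 (adjusted p = 2.54e-27). Tnfsf13b (BAFF), the survival factor of B cells, was at 0.928 to 1.76 CPM (median 1.23) in NOD and 5.78 to 8.28 CPM (median 6.51) in PWK, a difference of -2.38 ± 0.17 (adjusted p = 1.82e-19). Both were free of overlap. Ccl8 differed by -2.29 ± 0.52 (adjusted p = 0.000198). Ccl21a alone stood at 1.56 ± 0.21, but at -0.19 ± 0.20 (adjusted p = 0.445) with its copy.

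Haemoglobin and red cell genes gave 6 of 10 higher in NOD and 0 in PWK (median 0.83), with a summed level of 2831 to 5902 CPM in NOD and 1800 to 4579 CPM in PWK. The alpha globin genes Hba-a1 and Hba-a2 are near-identical. Hba-a2 alone differed by 2.91 ± 0.22 and Hba-a1 by -0.47 ± 0.24, and their sum by 0.64 ± 0.21 (adjusted p = 0.00878). For the beta globins Hbb-bs and Hbb-bt the sum differed by 0.59 ± 0.22 (adjusted p = 0.0238). Epb42, a red cell membrane protein, differed by 2.26 ± 0.60 (adjusted p = 0.00116). Blood left in the tissue can carry these transcripts, and its part in the immune values was not tested.

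Matrix genes were balanced, with 8 of 39 tested collagen and matrix genes higher in NOD and 7 in PWK (median 0.02). Thbs4 (chr13:92751590-92794818), a matricellular protein, was at 5.68 to 8.91 CPM (median 7.75) in NOD and 44.1 to 64.2 CPM (median 47.5) in PWK, a log2 difference of -2.75 ± 0.11 (adjusted p = 1.02e-30), without overlap. Cilp, a matrix protein of cartilage and fibroblasts, was at 8.61 ± 2.93 CPM in NOD and 3.46 ± 0.757 CPM in PWK, a difference of 1.31 ± 0.24 (adjusted p = 4.01e-06). Col4a4, a basement membrane collagen, was at 15.9 ± 1.57 CPM in NOD and 27.4 ± 2.91 CPM in PWK, a difference of -0.79 ± 0.13 (adjusted p = 1.05e-06). Tnc, tenascin C, went from 0.91 ± 0.26 (adjusted p = 0.0025) to 0.51 (adjusted p = 0.0663) without NOD 5. Fibroblast markers were 3 of 15 higher in NOD and 2 in PWK (median 0.12), and their summed level was 1929 to 2395 CPM in NOD and 1889 to 2257 CPM in PWK. The PWK count was 1 without any of NOD 5 to 8 or of PWK 2, 5 and 6, and the 16-library fit called 5 in NOD. Wif1, an inhibitor of Wnt signalling, was at 9.03 to 11.6 CPM (median 10.1) in NOD and 1.46 to 2.56 CPM (median 1.6) in PWK, a difference of 2.47 ± 0.17 (adjusted p = 2.57e-20), Dpep1, a membrane peptidase, at 29.1 ± 8.38 CPM in NOD and 53.4 ± 6.94 CPM in PWK, a difference of -0.87 ± 0.17 (adjusted p = 2.23e-05). Mfap5 differed by 0.43 ± 0.17 (adjusted p = 0.033), lost without any of NOD 1 to 4 or PWK 9 (adjusted p up to 0.084).

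Other cell types of the heart differed by a few markers each. Endothelial markers were 3 of 21 higher in NOD and 4 in PWK (median -0.08), among them Egfl7 (0.44 ± 0.15, adjusted p = 0.00942) and Sox18 (0.50 ± 0.16, adjusted p = 0.00657) in NOD and Car4 (-0.65 ± 0.22, adjusted p = 0.0114) and Nos3, endothelial nitric oxide synthase (-0.30 ± 0.11, adjusted p = 0.0154), in PWK. The 16-library fit called 6 in NOD, and without NOD 3 and NOD 5 there were 5 in NOD and 2 in PWK, with Nos3 no longer called (-0.24, adjusted p = 0.0844). Pericyte and smooth muscle markers were 1 of 13 higher in NOD and 6 in PWK (median -0.09), with summed levels of 1186 to 1352 CPM in NOD and 1410 to 1598 CPM in PWK that did not overlap. Medians of that sum were 1309 CPM in NOD and 1519 CPM in PWK, and the abundant Rgs5 made a large part of the gap. Rgs5, a pericyte gene, was at 418 to 499 CPM (median 464) in NOD and 543 to 633 CPM (median 595) in PWK, a log2 difference of -0.36 ± 0.06 (adjusted p = 1.67e-07). Cspg4 (NG2) differed by -0.58 ± 0.08 (adjusted p = 2.62e-08). Cnn1, the smooth muscle gene higher in NOD (0.54 ± 0.21, adjusted p = 0.0266), did not pass without any of NOD 1, 4 and 8 or PWK 1, 2 and 5 (adjusted p up to 0.0778), and the 16-library fit called 2 in NOD. Schwann and nerve markers were 4 of 10 higher in NOD and 3 in PWK (median 0.39), with the myelin genes Cnp (1.27 ± 0.12, adjusted p = 1.1e-13) and Mbp (0.94 ± 0.16, adjusted p = 7.13e-07) in NOD and S100b (-2.43 ± 0.31, adjusted p = 6.88e-10) and Cdh19 (-0.86 ± 0.15, adjusted p = 1.41e-06) in PWK. Epicardial and mesothelial markers were 5 of 10 higher in NOD and 0 in PWK (median 0.58), and 3 in NOD without NOD 3 and NOD 5. The 16-library fit called 1 in PWK. They included the keratins Krt7 (1.59 ± 0.26, adjusted p = 4.57e-07) and Krt18 (1.53 ± 0.31, adjusted p = 3.72e-05).

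Proliferation markers were 5 of 18 higher in NOD, near the 25.5% of all genes, and 2 in PWK (median 0.31). The NOD count was 2 without NOD 5 and in the 16-library fit, and 8 without NOD 4. Pttg1, securin, was at 2.62 ± 0.366 CPM in NOD and 1.15 ± 0.318 CPM in PWK, a log2 difference of 1.19 ± 0.15 (adjusted p = 9.28e-10). Birc5 went from 1.68 ± 0.35 (adjusted p = 4.35e-05) to 0.97 (adjusted p = 0.00475) without NOD 5, and Mki67, the classical marker of cycling cells, from 0.92 ± 0.32 (adjusted p = 0.0134) to 0.35 (adjusted p = 0.315). Mki67 did not pass in the 16-library fit either (adjusted p = 0.08). The replication licensing genes Mcm2 and Mcm5 were higher in PWK, by -0.69 ± 0.16 (adjusted p = 0.000186) and -1.25 ± 0.17 (adjusted p = 4.11e-09).

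Imprinted and growth genes were 5 of 17 higher in NOD and 7 in PWK (median 0). In the Dlk1-Meg3 domain of chromosome 12, the maternally expressed non-coding transcripts Meg3, Rian and Mirg were higher in NOD, by 0.96 ± 0.16 (adjusted p = 6.97e-07), 1.10 ± 0.13 (adjusted p = 2.48e-10) and 1.20 ± 0.38 (adjusted p = 0.0061). Dlk1, the paternally expressed gene there, was at a low 0.132 ± 0.129 CPM in NOD and 0.705 ± 0.89 CPM in PWK, a log2 difference of -2.36 ± 0.57 (adjusted p = 0.000437) and of -1.57 (adjusted p = 0.0151) without PWK 2. In the domain of chromosome 7, H19 was higher in PWK, at 11.5 to 20.6 CPM (median 13.4) in NOD and 22.9 to 47.6 CPM (median 38) in PWK, a difference of -1.41 ± 0.18 (adjusted p = 8.26e-10), without overlap, as was Igf2, given above.

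**Figure D4:**
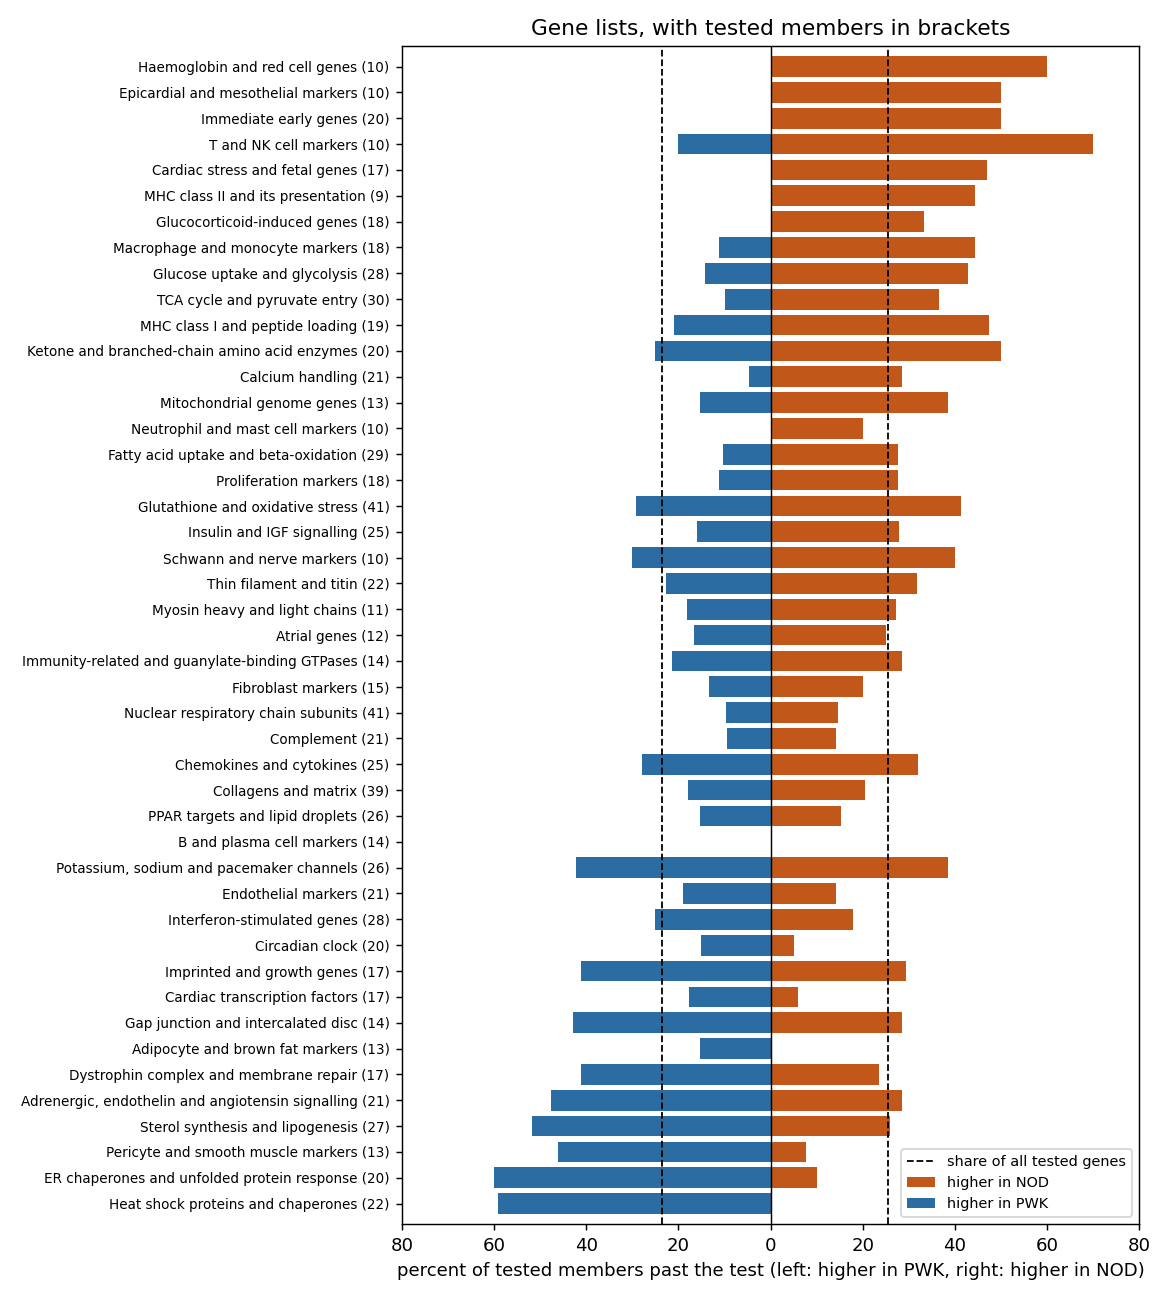
Percent of the tested genes of each list called higher in PWK (bars to the left) and in NOD (bars to the right), with dashed lines at the shares over all tested genes, 23.6% and 25.5%. ER chaperone, heat shock, sterol and lipogenesis, and adrenergic genes reach far to the left. The ER chaperone list was chosen after values had been seen. T and NK cell markers, haemoglobin, immediate early and epicardial genes reach far to the right. The T and NK count of 7 higher in NOD was 3 without NOD 5.

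Placed beside the means of the other 6 strains, the leading genes followed different patterns, which are given as descriptions. Ogdhl was low not only in PWK, at 0.859 CPM, but also in 129 (1.32), WSB (3.88) and Cast (3.99), and at 75.3 in AJ, 106.7 in B6, 121.7 in NOD and 135.2 CPM in NZO. Scn4b was lowest in 129 (4.09 CPM), followed by PWK (9.86) and Cast (11.1), and lay between 68.0 and 156 CPM in the other 5 strains. For Agtr1a, Dsg2 and Kcne1, PWK stood alone at the top. Agtr1a had a mean of 82.9 CPM in PWK against 46.3 CPM in 129, the next highest, Dsg2 of 189 against 128 CPM in 129, and Kcne1 of 33.2 against 11.2 CPM in 129. Hadh and Hopx set NOD apart at the low end. Hadh had a mean of 165 CPM in NOD against 414 to 508 CPM in the other 7 strains, and Hopx of 55.7 CPM against 93.1 to 272 CPM. Ace, Ucp2 and Cd59a were lowest in PWK, with the 6 strains besides NOD and PWK at 41.7 to 59.1 CPM for Ace, 61.9 to 166 CPM for Ucp2 and 17.2 to 62.8 CPM for Cd59a. Thbs4 was highest in PWK, against 4.83 to 17 CPM in those 6 strains. Bdh1 was highest in NOD, at 232 CPM, with NZO close to it at 209 CPM and 129 lowest at 45.8 CPM, just below PWK.

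**Figure D5:**
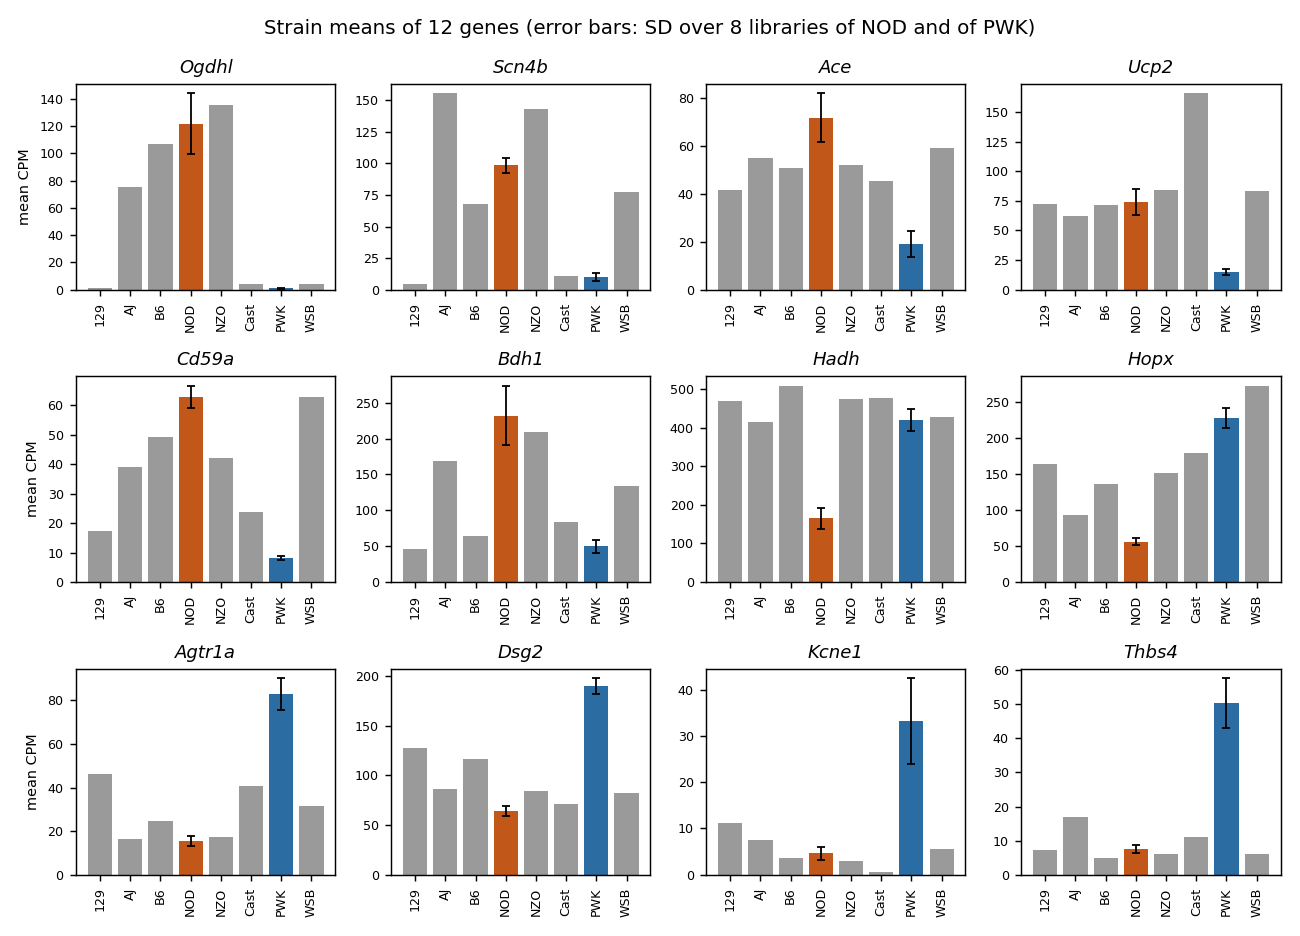
Mean CPM in the 8 strains for 12 genes, with bars from 0 and error bars of the SD over 8 libraries for NOD and PWK only. PWK is the low strain beside 129, Cast and WSB for Ogdhl, NOD is the low strain for Hadh and Hopx, and PWK is the high strain for Agtr1a, Dsg2 and Kcne1.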

How the data were processed

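Heart RNA of 16 of 63 libraries was analysed. The deposited table holds expected counts per gene (18.4% of its values are not whole), per the file values, and a second deposited table holds variance-stabilised values on a log2 scale. Per the submitters' processing notes GRCm38 and DESeq2 were used; which aligner and counter made the table was not recorded in the labels. The authors' table lists 19220 genes, each above 0 in at least 32 of 63 libraries.

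Counts were rounded and tested with edgeR 4.0.16 in R 4.3.3 (TMM scaling, filterByExpr with a minimum count of 10, robust quasi-likelihood fit). All 63 libraries entered, with 8 strain coefficients and 55 residual degrees of freedom; NOD minus PWK was the contrast, with Benjamini-Hochberg adjustment over 16425 genes at 0.05. A total of 2795 genes were left out as too low. Levels are CPM with TMM scaling. Near-identical copies were found with minimap2 2.31, and those among the listed genes were summed and refitted. Copies that the authors did not list could not be added. Scripts were tested on simulated data.

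Named without overlap between the strains were the 10 largest differences in each direction at a mean log2 CPM of at least 3, the 5 largest at 8 or more, genes with at most 3 counts in a strain and at least 5 CPM in the other, up to 2 members per direction of 44 gene lists, and 16 preset genes; predicted gene models were not named, and some genes that the rule or the lists hold are not reported here. Members and lists were chosen with earlier results of these data known, and list members named beyond this rule were chosen after their values were seen. Alternatives were DESeq2 1.42.0, limma 3.58.1, a fit of the 16 libraries alone, other filters and scalings, a replicate block and each library left out.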

Additional observations from a re-analysis of the deposited data

Results flagged for a closer look

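A total of 484 groups of 8 libraries were examined, each a named gene or the mitochondrial share in a strain. In them, 58 values were set apart, their gap to the next being a large part of the group's range. Chance alone would mark about 1 in 20 groups if values were normal and groups independent. CPM values need not be normal, and the genes were chosen with values known, so the count of 58 is no test. Values are CPM of the library set apart. NOD 3, the library with the highest B cell markers, was highest for Acaca (42.8), Cd79a (12.9), Ciita (5.13), Fasn (133), Gbp5 (8.22), H2-Aa (51), H2-Ab1 (23.1), H2-D1 (149), H2-DMb2 (6.77), H2-Eb1 (28.6), H2-Ob (5.99), H2-Q4 (29.8) and Ighm (140), and lowest for Nrap (952). NOD 5, with the highest T cell markers, was highest for Birc5 (3.73), Cd28 (13.2), Cd3e (7.1), Cd3g (8.98), Cd4 (24.7), Itgal (14.1), Krt18 (9.43), Lck (33.1), Mcm2 (7.61), Mcm5 (6.34), Mki67 (40.8), Prps2 (12.3) and Tnc (8.03). NOD 1 was highest for Ifi27l2a (18.2), Mcpt4 (1.98) and Ucp1 (9.81). NOD 8 was highest for Gstm6 (1.91) and H19 (20.6), and lowest for Dsg2 (53.6). NOD 4 was highest for Hsp90b1 (441). NOD 6 was highest for Epb42 (0.862). In PWK, library 2 was highest for Cd79a (3.26), Dlk1 (2.83), H2-Ob (1.37), Igfbp3 (60.9), Igfbp6 (23.3), Ighm (61.4), Mcpt4 (0.777) and Mirg (0.528). PWK 9 was highest for Car4 (23.9), Kcnip2 (304) and Srebf1 (77.7), and lowest for Col4a4 (21.4), Gbp3 (12.2), Irgm1 (4.65) and Postn (16.7). PWK 3 was highest for Egr2 (3.72), Fos (74.3) and Fosb (30.5). PWK 1 was highest for Birc5 (0.684) and mt-Atp8 (1800). PWK 6 was highest for Acta1 (521) and Mndal (0.0553). PWK 5 was highest for Suclg2 (235). The cause of these values was not tested.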

How the results depend on the processing

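The number of genes that differed was 8642 with the 16 libraries alone, 8026 with DESeq2 size factors, 8010 with scaling without mitochondrial genes, 8446 without a filter on low counts, 5878 when genes under a mean log2 CPM of 1 were dropped (fewer tests), 8177 with the DESeq2 test and 7955 with limma on the deposited log2 values, against 8070. A replicate block gave 7868 (4066 higher in NOD and 3802 in PWK). The numbers did not pair the libraries, as deviations of same-numbered libraries correlated at -0.153 to 0.204 and 0 of 7 numbers correlated best with their own. The median log2 difference was 0.003 with the 16 libraries alone, 0.016 with DESeq2 size factors and with the DESeq2 test, 0.021 with scaling without mitochondrial genes, 0.022 without the filter, 0 with that filter and 0.001 without NOD 3 and NOD 5 (chosen after seeing the data). Genes at least 2-fold higher in NOD and in PWK numbered 470 and 331 with the filter at log2 CPM 1, which left 765 genes highest in NOD among 8 strains, and 251 and 172 on the deposited log2 values; the cause of the latter was not tested. The mitochondrial share differed by 0.578 percentage points with copies added, chosen after seeing the data.

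Leaving out each library in turn gave 7762 to 8070 genes that differed, 4024 to 4187 higher in NOD, 3693 to 3883 higher in PWK, 1447 to 1588 and 821 to 866 at least 2-fold higher in NOD and PWK, 4106 to 4394 without overlap, medians of 0.007 to 0.013 and mitochondrial share differences of 1.415 to 1.926 points. With each library left out, Cd79a ran from -0.47 to 1.66, Ighm from -0.25 to 1.31, H2-Aa from -0.25 to 0.36 and H2-Ab1 from -0.12 to 0.36, each lowest without NOD 3, where direction turned. Direction also turned without NOD 3 and NOD 5 for these genes (-0.52, -0.63, -0.50 and -0.35) and Lck (-0.40). With copies summed it turned for Hba-a1 (0.64), mt-Nd4l (-0.19), Rpl12 (0.01), Myh7 (0.06), H2-T22 (1.38), C4a (0.33) and Ccl21a (-0.19). The sum for Myh7 was mostly counts of Myh6, so it cannot show the direction of Myh7. Of the other values of named genes with all 16 libraries or without NOD 3 and NOD 5, 2351 kept their direction and side of the threshold, 35 lost the call and 9 gained it; with a library left out, 3794 did, 53 lost and 5 gained. Of 221 named genes that were called, 82 had a difference over 1.5 times smaller on the deposited log2 values and 0 a larger one. Values of low genes rest on few counts, which limits their precision.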
